A study of Mus musculus with 2 samples.

Results

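The olfactory receptor genes of the mouse chromosome 11 cluster between 73 and 74.3 Mb were examined as a block of neighbouring genes. The entries were taken by position alone: every entry of the deposited table whose locus starts on chromosome 11 from 73000000 to 74300000 (build mm9), leaving out Olfr43. This gave 30 of the 1112 entries in the table. The study set out to examine Olfr transcripts by RNA-seq in total RNA of the olfactory epithelium, the odour-sensing lining of the nose, taken from adult C57BL/6 mice. There are 2 samples, both labelled wild type in title and genotype, but the second is described as 3bko, a name that the sources used here do not explain. Every row of the deposited table also names its samples as wt and 3bko, as for a comparison of the 2, while the titles and genotypes name no mutant or treated group. Nothing is said of how many animals each sample holds.

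The table gives 1 FPKM per entry, that is, a count of fragments divided by the length of the gene model and by the library's mapped fragments. It does not say whether that value belongs to wt, to 3bko or to both. The values below are therefore the authors' single values, without replicates, error or test, and the order of neighbouring values could not be tested. The depth is unknown. None of the 10 markers of olfactory neurons, supporting cells, basal cells or blood that were looked for is in the table, which holds Olfr genes alone, so the tissue label could not be checked against other genes.

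Olfactory receptors are G protein-coupled receptors that bind odorants on the cilia of olfactory sensory neurons. Each mature neuron transcribes a single receptor gene, from a single allele, out of the whole repertoire, and neurons that chose the same receptor send their axons to the same few glomeruli of the olfactory bulb. In RNA from a whole epithelium, the level of a receptor thus depends on how many neurons chose it and on how much of its mRNA each of them holds, and the 2 cannot be told apart here. Receptor genes lie in clusters that grew by gene duplication, so neighbours are often close relatives. The human counterpart of this cluster holds receptors of the OR1 and OR3A families.

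The 30 receptors had levels spread much like those of the whole table. Their median FPKM was 1.35 (quartiles 0.280 and 2.80), against 1.08 (0.377 and 3.04) in the other 1082 entries and 1.09 over all 1112. Of the 30, 18 (60%) had an FPKM of 1 or more, against 52.5% of all entries. An FPKM of 5 or more was reached by 2 of the 30 (6.67%), against 14.3% of all entries, and the cluster took 2.08% of the table's summed FPKM with 2.70% of its entries. Cuffdiff's status NOTEST, which marks entries with too few reads for its test, was given to 7 of the 30 (23.3%), against 18.3% of all entries. None of the 30 was listed at 0, against 9 of all 1112 entries, and 27 (90%) were at 0.1 or more, against 91.4% of all entries. These shares lie near those of the whole table.

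The difference in median, the 30 receptors minus the other entries, was 0.29 on the log2(FPKM + 0.1) scale. It was 0.02 without entries counted as pseudogenes by symbol or RefSeq type. That filter also drops Olfr391-ps and Olfr406-ps, which are typed as protein-coding. The difference turned to -0.51 among entries whose locus is the coding sequence alone, so its direction rests on the entries included. Against the other 954 class II entries, the large class of receptors typical of land animals to which all 30 belong, it was 0.10. The 49 entries on chromosome 11 below 60 Mb had a median of 2.49 (quartiles 0.648 and 5.80), with 32 of them (65.3%) at 1 or more and 15 (30.6%) at 5 or more. Set beside them, the 30 receptors had 2 entries at 5 or more and a lower median. Among the 21 runs of at least 10 Olfr entries with gaps under 1 Mb, the run that holds these receptors and Olfr43 was the ninth by median, at 1.49, in a range from 0.465 to 5.35.

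**Figure D1:**
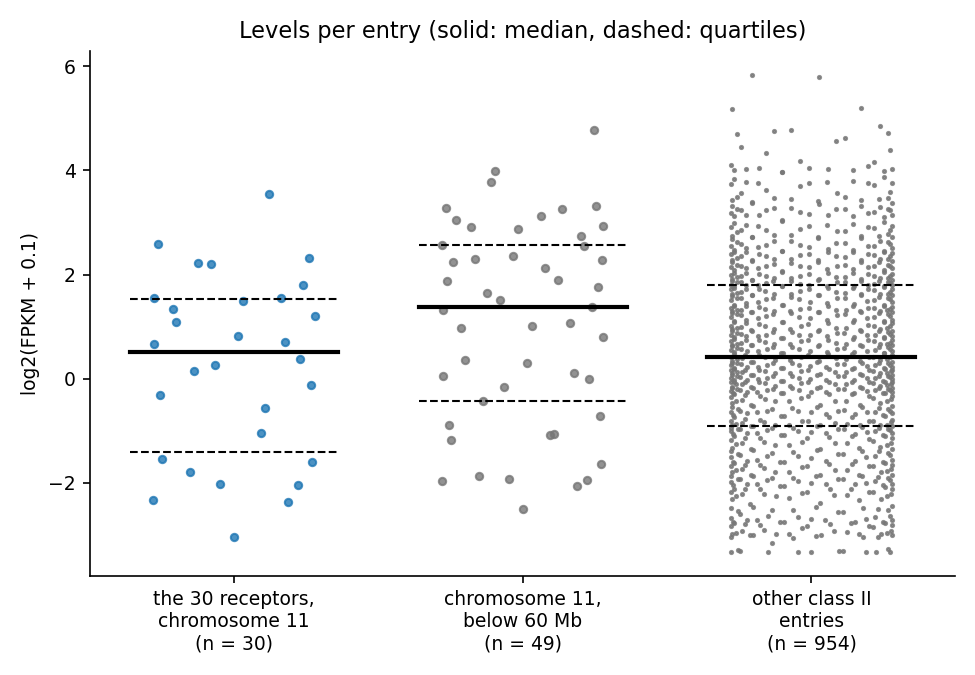
Level of each entry as log2(FPKM + 0.1) on the vertical axis, for the 30 receptors, the 49 chromosome 11 entries below 60 Mb and the 954 other class II entries, which include those 49. Solid lines are medians and dashed lines quartiles, each point is 1 entry, and the 30 receptors lack the highest values seen in both other sets.

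The 30 genes spanned 1015 kb. The nearest other chromosome 11 entries lay 13.7 Mb before and 13.5 Mb after them, so the window edges cut through no run of genes. The gap between neighbours had a median of 23.4 kb and was widest, at 173 kb, between Olfr384 and Olfr389. By GENCODE M21, 12 of the genes lie on the plus strand and 18 on the minus strand, with medians of 0.915 and 1.51 FPKM.

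The cluster is built from whole receptor families. In the MOR naming system, which groups mouse receptors by sequence, 19 of the 30 belong to MOR135, and these are all 19 MOR135 entries of the table. They fill the first part of the cluster, from Olfr20 to Olfr397. The 6 entries of MOR255, the 2 of MOR133 and the only entry of MOR157 are also all here, in the second part. Olfr403 is the member of MOR125, whose other entry is Olfr43. Olfr412 is the only member of MOR127, which has 5 entries in the table on chromosomes 2, 11 and 19. The families are far apart in sequence. Identity of the coding sequence, counted over all aligned columns, had a median of 79.7% over the 153 pairs within MOR135 that have a coding sequence. It had a median of 56.3% over the 198 pairs of a MOR135 gene with a gene of another family here. The GC content of the coding sequence, or of the transcript for the non-coding Olfr75-ps1, ran from 42.2% to 50% in MOR135 and from 48.9% to 54.4% in the other 11 genes.

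To show how the families differ at their start, the first 60 coding bases of a member of each are given from GENCODE M21, with the start codon in capitals.
Olfr390 (MOR135, chr11:73786940-73786999, plus strand, GRCm38): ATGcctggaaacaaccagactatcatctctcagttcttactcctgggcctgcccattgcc
Olfr398 (MOR157, chr11:73984547-73984606, minus strand, GRCm38): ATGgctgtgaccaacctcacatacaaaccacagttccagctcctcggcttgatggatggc
Olfr139 (MOR255, chr11:74045213-74045272, minus strand, GRCm38): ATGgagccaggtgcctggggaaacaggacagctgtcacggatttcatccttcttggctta
Olfr403 (MOR125, chr11:74195505-74195564, plus strand, GRCm38): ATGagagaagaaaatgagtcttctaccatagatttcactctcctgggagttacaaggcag
Olfr59 (MOR133, chr11:74288648-74288707, plus strand, GRCm38): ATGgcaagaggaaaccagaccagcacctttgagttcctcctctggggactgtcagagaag
Olfr412 (MOR127, chr11:74364671-74364730, plus strand, GRCm38): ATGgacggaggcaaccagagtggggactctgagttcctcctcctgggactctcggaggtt

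MOR135 carried most of the cluster's signal. Its genes, 19 of the 30, held 73.9% of the summed FPKM of the 30, with a median of 1.52. They ranged from 0.0951 to 11.6, the latter being Olfr390 alone. Of the 19, 13 (68.4%) were at 1 or more, against 52.5% of all entries and 56.4% of the other class II entries. Among the 30 families with at least 10 entries, MOR135 was the thirteenth by median.

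The highest value was that of Olfr390 (MOR135-26, chr11:73600442-73601377, mm9), at an FPKM of 11.6. It was the only 1 of the 30 receptors among the highest 100 entries of the table, with 45 entries above it. Olfr1 (MOR135-13, chr11:73208578-73212997) followed with 5.89. Olfr391-ps (MOR135-24, chr11:73612255-73616486) had 4.92, Olfr59 (MOR133-3P, chr11:74097311-74103148) had 4.57 and Olfr380 (MOR135-1, chr11:73266777-73267712) had 4.49. These 5 genes together held 51.1% of the summed FPKM of the cluster. The next were Olfr403 at 3.36, Olfr389 at 2.83, Olfr398 at 2.82, Olfr393 at 2.72 and Olfr75-ps1 at 2.42.

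Along the map, higher and lower MOR135 values were mixed. The runs named here were read off the values themselves, and their order could not be tested. At the start of the cluster, Olfr20 (0.816) and Olfr376 (1.01) lay beside Olfr1 (5.89), Olfr75-ps1 (2.42), Olfr378 (1.10), Olfr380 (4.49) and Olfr381 (1.52). Then came 3 neighbours with status NOTEST, namely Olfr382 (chr11:73329761-73330699) at 0.0951, Olfr385 (chr11:73402300-73403238) at 0.144 and Olfr384 (chr11:73416084-73417022) at 0.188. Beyond the widest gap, the 6 genes Olfr389 (2.83), Olfr390 (11.6), Olfr391-ps (4.92), Olfr392 (1.67), Olfr393 (2.72) and Olfr394 (1.49) were all above 1. Over all entries, 52.5% were at 1 or more. Olfr395 had 0.148 with status NOTEST, Olfr23 had 0.386 and Olfr397 had 2.03. Over the 29 pairs of neighbours in the whole cluster the median absolute difference was 1.30 log2 units, against 1.77 over all 435 pairs. Neighbours often share sequence and family, so the pairs are not separate measurements.

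**Figure D2:**
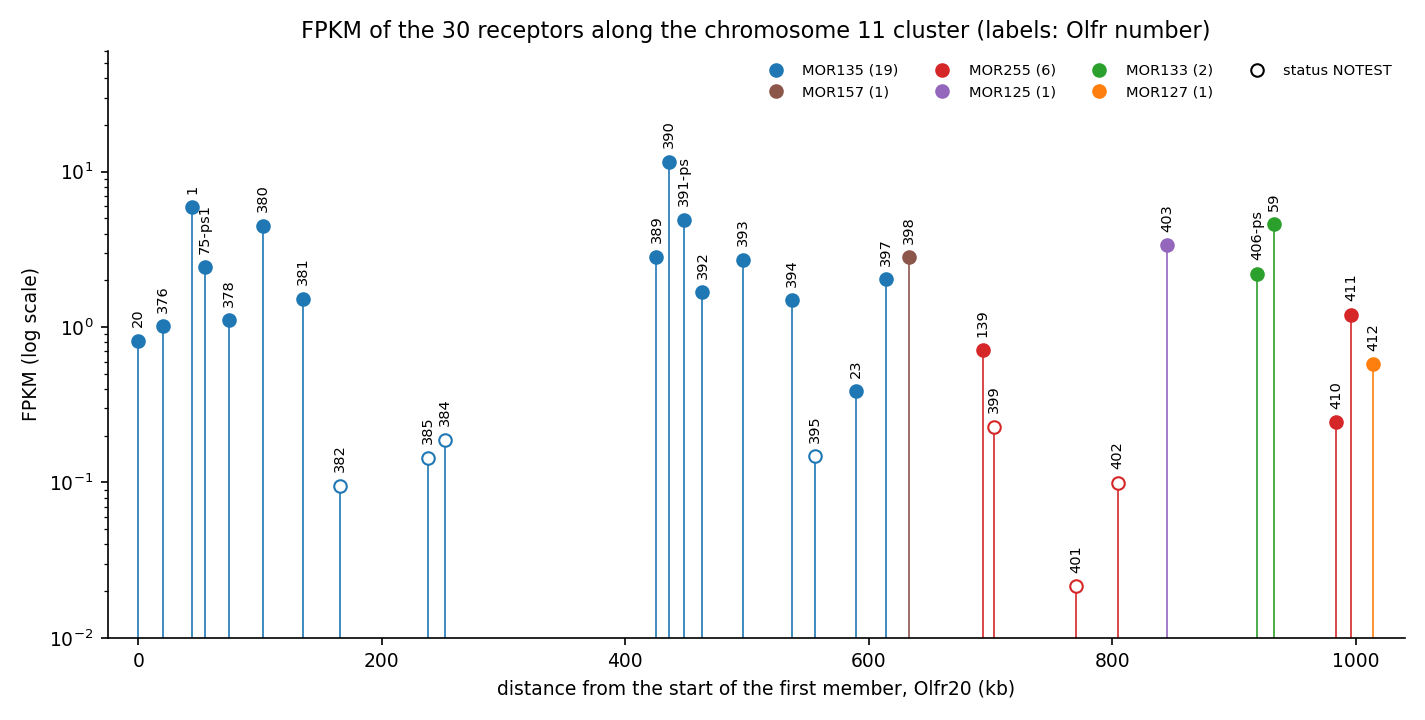
FPKM on a log axis against distance from the start of Olfr20 in kb, with 1 stem per receptor coloured by MOR family and open circles for status NOTEST. The open circles stand in 2 runs of 3 neighbours, in MOR135 and in MOR255, with Olfr395 apart from them, and Olfr390 at 11.6 is the highest.

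MOR255 was the low family of the cluster. Its 6 genes had a median FPKM of 0.237 and held 4.07% of the cluster's summed FPKM. Only Olfr411 (MOR255-3, chr11:74160126-74161174) was above 1, at 1.20, while Olfr139 had 0.710 and Olfr410 had 0.245. The other 3 had status NOTEST and lie next to each other in the table: Olfr399 at 0.229, Olfr401 (chr11:73934793-73935740) at 0.0215 and Olfr402 (chr11:73968658-73969605) at 0.0999. Olfr401 was the lowest of the 30 receptors and ranks 1087 of 1112. The family lies in 2 places, with Olfr403, Olfr43, Olfr406-ps and Olfr59 between Olfr402 and Olfr410, and its members under 1 FPKM lie on both sides of that stretch. Without MOR255, the median of the remaining 24 genes was 1.85 and 70.8% were at 1 or more, against 52.5% of all entries. Both figures rise by construction, since the family left out was picked for its low values.

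The genes between the MOR255 members were higher. Olfr403 had 3.36, and the MOR133 genes Olfr406-ps and Olfr59 had 2.21 and 4.57. Olfr398, the MOR157 receptor between MOR135 and MOR255, had 2.82. Olfr412 at the far end had 0.576, within the range of its relatives elsewhere, which ran from 0.339 (Olfr351) to 1.35 (Olfr1496). No family other than MOR135 and MOR255 has more than 2 genes here, so these values describe single genes.

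Close relatives did not always have like levels. Of the 406 pairs of the 29 receptors with a coding sequence, 8 had at least 90% identity. Their level differences ran from 0.28 to 3.57 log2 units with a median of 1.26. Only 2 of the 8 differed by over 2 log2 units, and both include Olfr395, a low entry with status NOTEST. The median difference was 2.37 over the 16 pairs at 85 to 90% and 1.84 over the 382 pairs under 85%. The 16 pairs reuse a few genes. Of them, 9 differed by over 2 log2 units, and each of these includes Olfr1 or an entry with status NOTEST. The neighbours Olfr380, Olfr381, Olfr382, Olfr385 and Olfr384 form a group of 5 close relatives. Their coding sequences were at least 84.6% identical to each other, yet Olfr380 had 4.49 and Olfr381 had 1.52 FPKM. The other 3, all with status NOTEST, were between 0.0951 and 0.188. Olfr380 and Olfr381 were 91.3% identical.

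**Figure D3:**
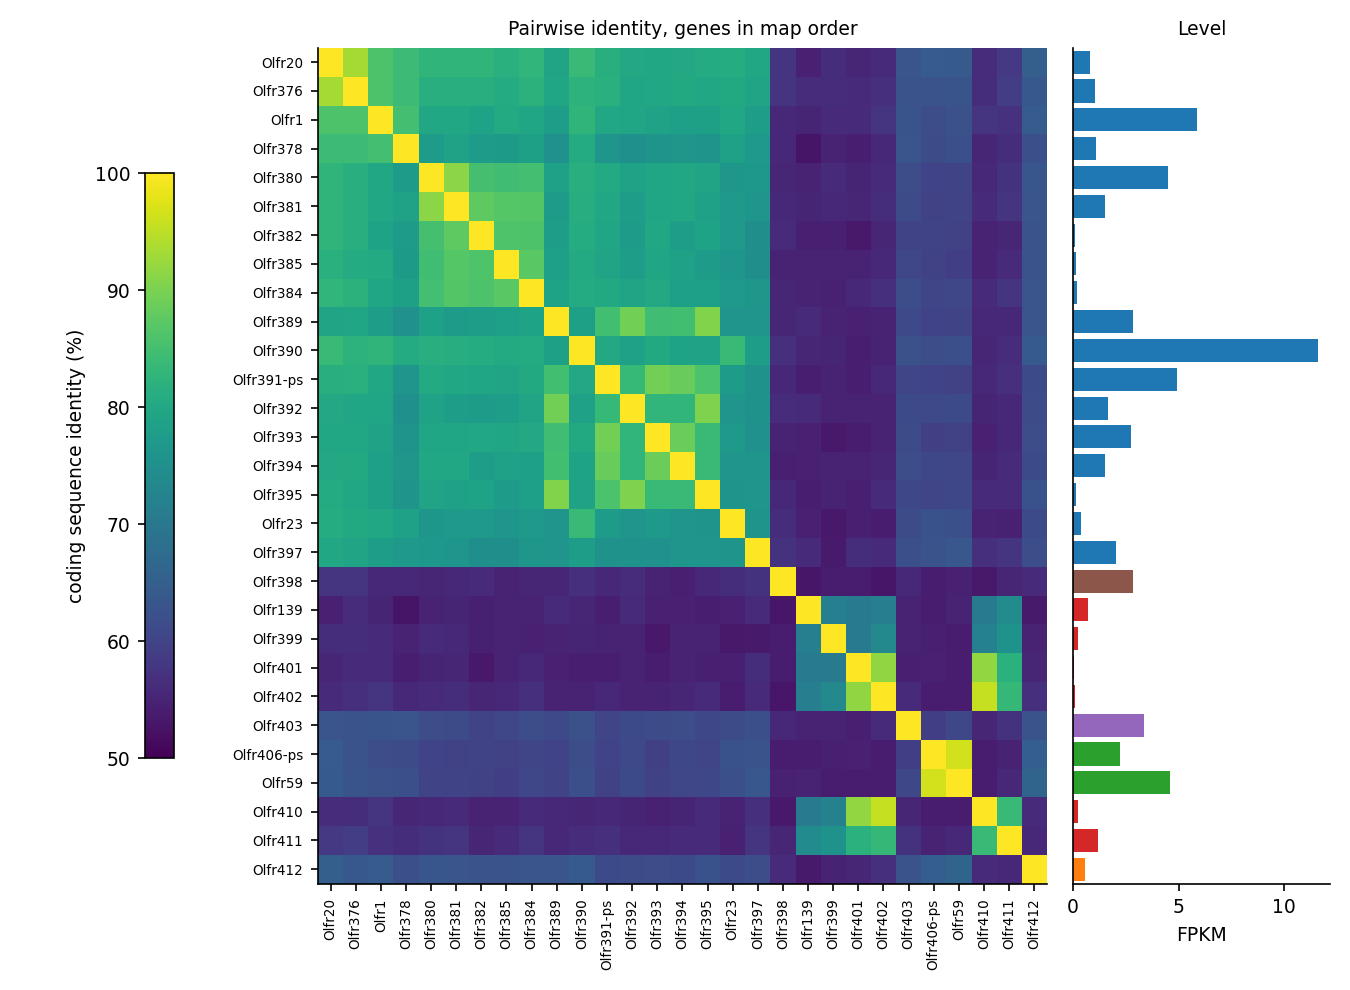
Identity of the coding sequences in percent, as colour, for 29 receptors in map order, and at the right the FPKM of each on a linear axis, with bars in the colours of the MOR families (MOR135 blue, MOR157 brown, MOR255 red, MOR125 purple, MOR133 green, MOR127 orange). MOR135 forms the block at the top left, MOR255 the 2 patches lower down, and high and low bars stand side by side within blocks of alike sequence.

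The closest pair with a wide difference was Olfr389 and Olfr395, both of MOR135 and both on the minus strand. Olfr389 had 2.83 FPKM and Olfr395, with status NOTEST, had 0.148, at 90.5% identity with 89 differing bases among 936. Olfr392, at 1.67, was 90.4% identical to Olfr395. The 120 coding bases (positions 691 to 810 from the start codon) in which Olfr389 and Olfr395 differ most hold 18 differences, shown in capitals.
Olfr389 (chr11:73776516-73776635, minus strand, GRCm38): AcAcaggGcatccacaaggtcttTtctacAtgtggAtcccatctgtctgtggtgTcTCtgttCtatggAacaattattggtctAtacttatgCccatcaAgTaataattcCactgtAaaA
Olfr395 (chr11:73906681-73906800, minus strand, GRCm38): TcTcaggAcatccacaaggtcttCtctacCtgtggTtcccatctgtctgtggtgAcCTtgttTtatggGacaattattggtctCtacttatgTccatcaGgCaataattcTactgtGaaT
The longest stretch without a difference was 59 bases in this pair. Of the coding 50-mers, 97.1% of Olfr389 and 92.2% of Olfr395 occur in no other Olfr transcript of GENCODE M21, so most 50-base reads could tell them apart.

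**Figure D4:**
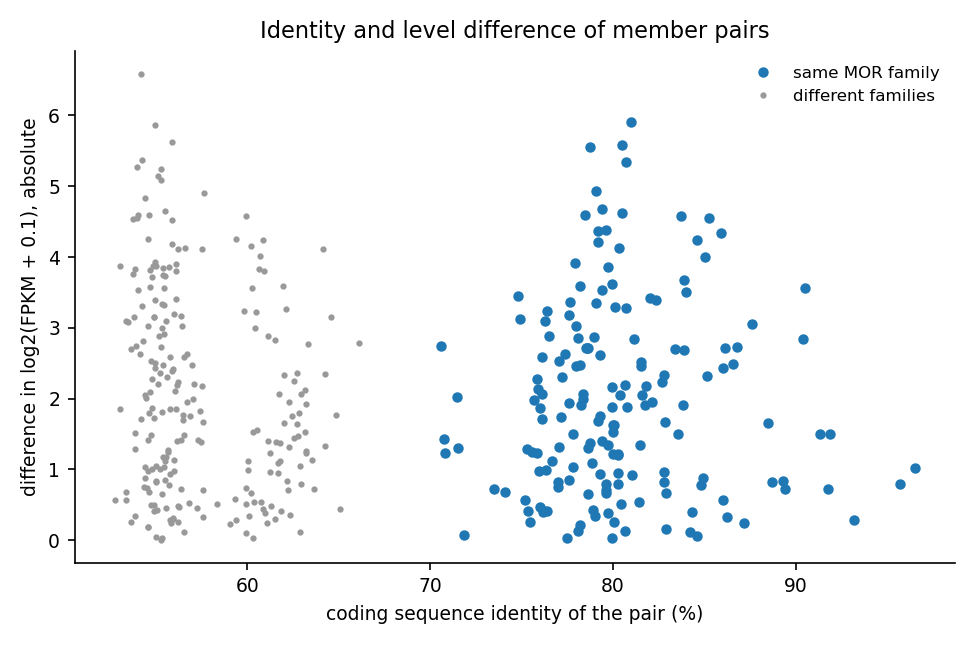
Absolute difference in log2(FPKM + 0.1) against coding sequence identity in percent for the 406 pairs of 29 receptors, with pairs of the same MOR family as large blue points. Differences over 2 log2 units occur at identities up to 90.5%, among them Olfr389 with Olfr395 at 3.57, where Olfr395 has status NOTEST.

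Sharing of sequence limits some of the values. Neither the read length nor the handling of reads that match several genes is known. With 50-base stretches, 23 of the 30 receptors (76.7%) had at least 80% of their coding sequence unique among Olfr transcripts, against 66.4% of 1102 entries in GENCODE. This was 18 of 30 with 36-base stretches and 29 of 30 with 100-base stretches. The shares over all entries at these lengths are not given here, so these counts cannot be set against the whole table. Olfr397, Olfr398, Olfr139 and Olfr412 were fully unique at 50 bases.

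Olfr403 was the least unique, with 29.1% of its 50-mers found nowhere else, and Olfr43 holds 70.4% of them. Olfr43, whose locus begins 9.75 kb after that of Olfr403 on the opposite strand, is close kin to the human citronellol receptor OR1A1. It had an FPKM of 7.11 and Olfr403 had 3.36, and neither value can be assigned to its gene alone. The coding sequences were 98.7% identical, with 12 differences among 939 bases and a longest identical stretch of 286 bases. Coding positions 268 to 387 hold 6 of the 12 differences, in capitals.
Olfr403 (chr11:74195772-74195891, plus strand, GRCm38): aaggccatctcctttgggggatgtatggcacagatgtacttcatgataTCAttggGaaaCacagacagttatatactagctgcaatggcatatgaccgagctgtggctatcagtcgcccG
Olfr43 (chr11:74206828-74206947, minus strand, GRCm38): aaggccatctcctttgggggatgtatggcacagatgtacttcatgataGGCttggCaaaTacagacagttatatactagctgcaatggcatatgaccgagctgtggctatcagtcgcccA
With Olfr43 counted, the cluster had 31 entries, a median of 1.49 and 2.32% of the summed FPKM of the table.

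The other receptors under 80% unique were Olfr406-ps (62.0%), Olfr20 (64.6%), Olfr380 (65.0%), Olfr376 (71.7%), Olfr59 (74.9%) and Olfr384 (75.8%), and their values are uncertain for the same reason. Olfr406-ps and Olfr59 were 96.5% identical with values of 2.21 and 4.57. Olfr20 and Olfr376, the first 2 genes of the cluster, were 93.2% identical with values of 0.816 and 1.01. Within MOR255, Olfr402 and Olfr410 were 95.7% identical and both low, at 0.0999 and 0.245, with 80.8% and 83.3% of their 50-mers unique. Their most different 120 coding bases (positions 330 to 449) hold 9 of 41 differences and show how little separates these low receptors.
Olfr402 (chr11:74155485-74155604, plus strand, GRCm38): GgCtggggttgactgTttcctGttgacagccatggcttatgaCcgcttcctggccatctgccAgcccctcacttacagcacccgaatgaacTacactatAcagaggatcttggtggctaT
Olfr410 (chr11:74334781-74334900, minus strand, GRCm38): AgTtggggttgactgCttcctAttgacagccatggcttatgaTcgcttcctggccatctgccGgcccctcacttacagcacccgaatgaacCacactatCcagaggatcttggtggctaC
Across the 30 genes, uniqueness and FPKM had a Spearman's rho of -0.02.

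Receptors with more annotated exons had higher values. All 11 receptors with 3 or more exons in the GENCODE M21 transcript used were at an FPKM of 1 or more (median 2.72), against 7 of the 19 with 1 or 2 exons (median 0.576). Over the whole table the same shares were 68.5% of 355 and 44.8% of 747. The 11 included Olfr390, Olfr1, Olfr380, Olfr389, Olfr398 and Olfr397 with 3 exons, and Olfr393 and Olfr394 with 4. All 7 NOTEST receptors had 1 or 2 exons, as had 89.6% of the 202 NOTEST entries in GENCODE. Of all 1102 entries in GENCODE, 747 had 1 or 2 exons, as had 19 of the 30 receptors. Olfr382, at 0.0951, was the only single-exon gene of the 30. The highest of the 18 with 2 exons were Olfr391-ps at 4.92, Olfr59 at 4.57 and Olfr403 at 3.36. Exon number and FPKM had a Spearman's rho of 0.59 over the 30 receptors and 0.37 over the 1072 other entries in GENCODE. Within MOR135 alone it was 0.62 (n = 19). For the length of the annotated 5′ untranslated region rho was 0.36 over 28 receptors and 0.33 over 999 others. For the 3′ untranslated region it was 0.22 over 28 receptors and 0.09 over 993 others. All points come from the same value column, and exon numbers and lengths depend on the transcripts known to the annotation, whose part in these relations was not tested.

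**Figure D5:**
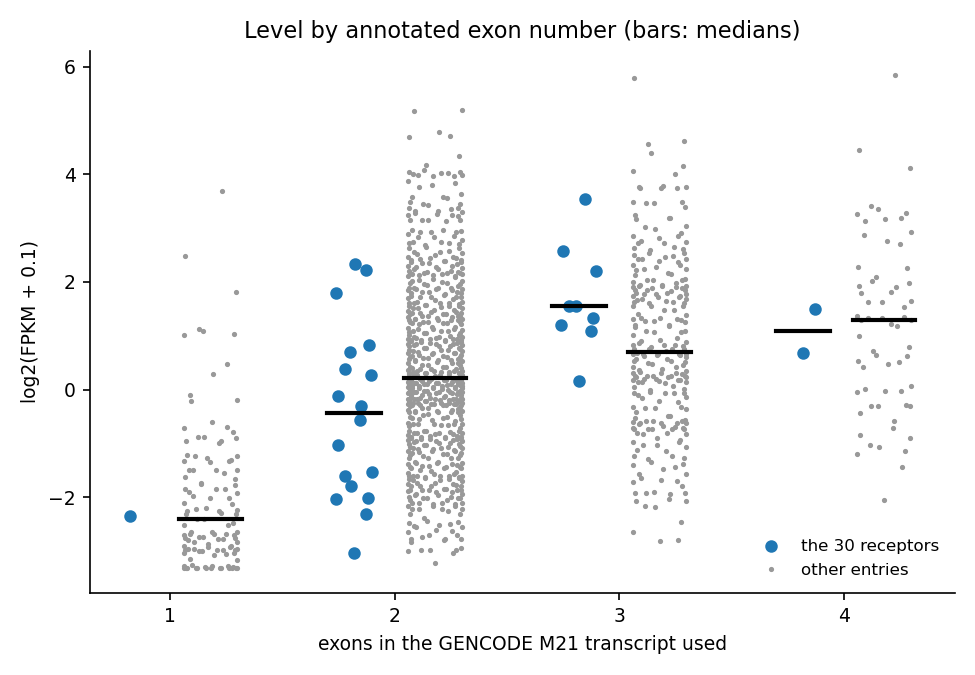
Level as log2(FPKM + 0.1) by the number of exons, for the 30 receptors (blue, left of each number) and the other entries with 1 to 4 exons (grey, right), with bars at the medians. Every blue point at 3 or 4 exons lies above 0 on this axis, while those at 2 exons reach from the lowest to the third highest of the 30.

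The authors' gene models differ in what they cover. For 19 receptors the locus matched the coding sequence in length, at 933 to 978 bp, and the FPKM then leaves out the untranslated regions. For the other 11 it was 1003 to 5838 bp. The median FPKM was 0.710 with the coding-only loci, of which 9 of 19 were at 1 or more, and 1.67 with the longer loci, of which 9 of 11 were. Over all entries, the 762 coding-only loci had a median of 1.05 and the remaining 350 entries 1.11, with 51.6% and 54.6% at 1 or more. The 350 also include entries without a GENCODE match or without a coding sequence. Olfr390, the highest, has a coding-only locus, as have 6 of the 7 NOTEST receptors and 72.4% of the 203 NOTEST entries of the table. Such loci make up 68.5% of all entries and 19 of the 30 receptors, so the 72.4% lies near the share over all entries.

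The 3 receptors with ps in their Olfr symbol were all above 2 FPKM. Olfr75-ps1, typed as a transcribed pseudogene in RefSeq and GENCODE, had 2.42. Olfr391-ps had 4.92 and Olfr406-ps had 2.21, and both are typed as protein-coding in RefSeq and GENCODE in spite of their symbols. The 27 pseudogene entries of the whole table, by symbol or RefSeq type, had a median of 0.787. Of these 27, 11 were at 2 or more, as were 385 of all 1112 entries. At 1 or more were 48.1% of the 27, against 52.5% of all entries.

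Windows from 250 bases before to 50 bases after the RefSeq start (GRCm38.p6) were at hand for 25 of the 30 receptors, in 26 windows, and were searched on both strands. In 17 of them the start is the ATG itself, so these windows include 50 coding bases, in which motifs were counted too, and where transcription starts was not measured. The homeodomain motif TAATTA was in 6 windows (23.1%), those of Olfr1, Olfr20, Olfr378, Olfr382, Olfr393 and Olfr402, against 18.6% of 930 windows of Olfr entries and 5.29% of all 32851 mouse windows. TAATTG, which can overlap it, was in 5 (19.2%), against 23.1% and 8.0%. The TATA box TATAAA was in 9 (34.6%), against 41.2% and 13.6%. The core CCCNNGGG of the O/E motif, bound by the Ebf factors of olfactory neurons, was in the window of Olfr398 alone (3.85%), against 2.90% and 13.7%. Genes with the TAATTA motif ranged from Olfr382 at 0.0951 to Olfr1 at 5.89 FPKM.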

How the data were processed

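The authors deposited 1 FPKM value per Olfr entry, with a locus and a status. Reads were processed with TopHat2, Bowtie2 and Cuffdiff on build mm9, per the submitters' processing notes, where versions are missing. Libraries were made by the TruSeq protocol from Trizol RNA, per the labels' protocols. The sources used here state neither the annotation, nor the depth, nor how multiply matching reads were treated. Among 178 low coding-only entries, at best 32.0% lay within 0.1 of a whole read, so the FPKM could not be turned back into counts.

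Table starts count from 0 and 1 was added. Loci are mm9, while printed sequences carry GRCm38 coordinates from GENCODE M21. Positions were not compared across the builds. Locus lengths in mm9 were set against GRCm38 coding lengths, and strands and exon numbers also come from GRCm38. By symbol 28 of the 30 receptors matched RefSeq, 2 by an older symbol, and all 30 matched GENCODE. The longest coding transcript of each gene was used, or the longest where none codes. Coding sequences, without stop codon, were aligned globally with Biopython 1.88 (match 1, mismatch -1, gap opening -4, extension -0.5). Unique k-mers were those in no other Olfr transcript on either strand. Class I was MOR families 1 to 42, and entries without a MOR family were placed in a class by their Olfr number. The identity step was checked on simulated substitutions, without gaps. The correlation step was run only on a fixed rising sequence, where rho is known. All 30 receptors are named, with values for the highest 10, the lowest 5, near-identical pairs, family members and pseudogenes. Only Olfr43 and relatives in MOR127 are named from outside. The receptors and lists were chosen with earlier results of these data known. Relatives were ranked by coding identity, since no protein sequences were used here. No test was run, since there is 1 value per gene and no replicate.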

Additional observations from a re-analysis of the deposited data

How the results depend on the processing

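The median difference of the 30 receptors from the other entries was 0.29 log2 units. It reversed to -0.51 among entries with coding-only loci (19 of the 30 receptors), a change whose cause was not tested. In the other alternatives run it ranged from 0.02 without entries counted as pseudogenes by symbol or RefSeq type to 0.72 without MOR255. The share at an FPKM of 1 or more, 60%, was 78.3% among entries with status OK, which drops low entries by construction. Over the whole table, 584 of the 909 entries with status OK were at 1 or more, as no NOTEST entry was above 0.324. At thresholds of 0.1 and 5 the share of the 30 receptors was 90% and 6.67%, and 27 and 2 receptors passed. The rho with exon number, 0.59, was 0.48 without MOR255, from 24 genes, and between 0.51 and 0.63 in the other alternatives. The alternatives without MOR255 or Olfr403, with MOR135 alone, with coding-only loci and with stretches of 36 and 100 bases were chosen after seeing the data. No paired analysis was possible because the table holds 1 value per gene, which also kept the planned values without replicate 1 or 2 and the difference between libraries from being run. The counting error of the low values cannot be given without the depth.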
